A study of Mus musculus with 5 samples.

Results

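The G1 cyclins, the kinases they activate and the pocket proteins those kinases phosphorylate were followed gene by gene in epidermal stem cells with and without Angptl4. The set was chosen by gene symbol alone and holds 10 genes of the 17657 in the deposited table, namely the D cyclins Ccnd1, Ccnd2 and Ccnd3, the E cyclins Ccne1 and Ccne2, the kinases Cdk4 and Cdk6, and the pocket proteins Rb1, Rbl1 and Rbl2. All 10 were found and all 10 passed the filter on low counts. The libraries came from epidermal stem cells, the progenitors of skin keratinocytes, of male C57BL/6 mice with a labelled time of 8 weeks, cultured in KGM2 medium. WT cells (3 libraries) came from wild-type mice and KO cells (2 libraries) from Angptl4 knockout mice, which lack a secreted inhibitor of lipoprotein lipase. Which part of the gene was removed is not stated in the labels. Gene coordinates are those of the deposited table, on GRCm38, and values run in the order WT1, WT2, WT3 and KO1, KO2 throughout. Whether libraries of 1 group are separate animals or separate cultures is not labelled either, and a p-value here reflects nothing but the spread of these samples, which could be technical.

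In a cell leaving the resting state, growth signals raise D cyclins, which bind CDK4 or CDK6 and phosphorylate the pocket proteins RB1, p107 (Rbl1) and p130 (Rbl2). Pocket proteins hold E2F transcription factors in check, and their phosphorylation frees E2F to switch on genes for S phase, the E cyclins and Rbl1 among them. Cyclin E with CDK2 then phosphorylates the pocket proteins further and starts DNA replication. The protein level of p130 is typically higher in resting cells and that of p107 in cycling cells. Only RNA was measured here. In skin, the basal keratinocytes divide and leave the cycle as they differentiate.

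Promoters are shown for 3 of the genes that were lower in KO cells, each marked with a different motif that it holds. No gene that was higher or did not pass is shown, so these sequences cannot tie a motif to a change. RefSeq sequences on GRCm38.p6 were matched for 6 of the 10 genes (7 start sites); Ccnd1, Ccnd2, Ccne2 and Rb1 were not matched. Each sequence below covers the 250 bases before the annotated start, 5′ to 3′ on the gene's strand, and capitals mark the motif named with it.
Rbl1 (chr2:157204535-157204784, minus strand), E2F site: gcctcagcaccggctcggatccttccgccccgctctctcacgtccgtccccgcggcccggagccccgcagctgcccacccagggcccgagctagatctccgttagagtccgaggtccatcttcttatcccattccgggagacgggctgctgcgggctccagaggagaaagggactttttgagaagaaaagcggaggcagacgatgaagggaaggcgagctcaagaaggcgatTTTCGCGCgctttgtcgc
Ccne1 (chr7:38107491-38107740, minus strand), GC boxes: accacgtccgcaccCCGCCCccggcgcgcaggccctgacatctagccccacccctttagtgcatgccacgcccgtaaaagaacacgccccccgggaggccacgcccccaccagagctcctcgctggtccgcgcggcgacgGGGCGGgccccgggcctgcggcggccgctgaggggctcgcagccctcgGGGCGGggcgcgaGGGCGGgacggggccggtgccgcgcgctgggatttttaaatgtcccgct
Cdk4 (chr10:127063285-127063534, plus strand), E-boxes: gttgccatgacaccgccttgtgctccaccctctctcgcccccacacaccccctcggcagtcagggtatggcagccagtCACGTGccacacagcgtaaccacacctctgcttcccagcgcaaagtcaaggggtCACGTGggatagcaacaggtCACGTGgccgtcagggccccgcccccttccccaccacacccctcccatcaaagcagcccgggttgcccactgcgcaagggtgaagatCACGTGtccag
An E2F site was searched as TTTCCCGC, TTTGGCGC, TTTCGCGC or TTTGCCGC on both strands. Rbl1 held 1 match, at -18 to -11 from its start, and none of the other 6 windows held one, against 1.86% of 32851 RefSeq promoter windows of the same length. The E-box CACGTG, a sequence bound by MYC and related factors, occurred 4 times before Cdk4 and 1 time before Cdk6. Over all windows 6.02% held an E-box, and 7 windows held 4 or more. The GC box GGGCGG, on either strand, occurred 4 times before Ccne1, where 32.7% of all windows held at least 1 and 4.09% at least 4. It also occurred before Rbl1, Cdk4 and both start sites of Ccnd3, a gene that did not pass. The windows of Rbl1, Ccne1 and Cdk4 were 63.6, 76.0 and 64.4% G or C, above the median of 52.4% over all windows. TTTGAA, the core of the element that MuvB reads in cell cycle promoters, matched 1 time before Rbl2 and in 16.0% of all windows. No match of 1 motif overlapped that of another in the windows of these genes. A match describes the letters and shows no binding.

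The libraries held 20283084 to 20773407 expected counts. Angptl4 was at 6.96, 5.76 and 4.12 CPM (counts per 1e6, scaled between libraries) in the WT libraries against 0.83 and 1.06 CPM in the KO libraries, a log2 change of -2.56 ± 0.32 (SE; adjusted p = 0.00458, edgeR). Fitting each group with its own spread lost that call (adjusted p = 0.127; alternatives ranged from 5.68e-09 to 0.127). Variation between libraries (biological coefficient of variation) was 28.9% in KO and 5.22% in WT. All 8 basal keratinocyte markers were measured. They summed to 37076 to 37990 CPM in WT and 49533 and 38893 CPM in the KO libraries. The hair follicle keratin Krt15 was low in every library, at 0.10, 0.15 and 0.49 CPM in WT and 2.69 and 1.45 CPM in KO. Krt5 and Krt14 made up most of the basal sum. By test 3 of the 8 markers were higher, 2 lower and 3 did not pass. The 3 higher became 0, 0 and 1 and the 2 lower stayed 2, 2 and 2 without WT1, WT2 or WT3. Over all tested genes 20.4% were higher and 20.4% lower. The higher markers were Krt15, Itgb4 and Cdh3, with log2 changes of 3.06, 0.49 and 0.41 (adjusted p = 0.0164, 0.0171 and 0.0354, edgeR). The lower ones were Trp63, the master transcription factor of basal cells (log2 change -0.73, adjusted p = 0.00517, edgeR), and the integrin gene Itga6 (-0.91, adjusted p = 0.00413). All 12 fibroblast markers were measured, at a summed 468 to 482 CPM in WT, 781 CPM in KO1 and 379 CPM in KO2. Fbln2 gave most of that sum in every library, at 383 to 403 CPM in WT against 566 (KO1) and 275 CPM (KO2), and did not pass. Of 11 tested, 5 were higher in KO and 0 lower, and Col1a1 was at 0.15 to 1.60 CPM in WT and 18.9 and 4.20 CPM in the KO libraries. The 5 higher became 1, 2 and 1 without WT1, WT2 or WT3. The part of these cells in the results below was not tested. Melanocyte, endothelial, immune and Merkel cell lists summed to at most 7.63, 5.41, 40.8 and 17.7 CPM in any library. Cd68 gave most of the immune sum and Krt8 most of the Merkel sum. By test Cd68 was higher in KO and the endothelial Kdr lower (adjusted p = 0.018 and 0.0293, edgeR), and no other gene of these lists passed. Without WT1, WT2 or WT3 the Kdr call was lost. The immune list then held 0, 1 and 0 higher and 0, 0 and 1 lower. Of the defining markers the endothelial Emcn and the T cell gene Cd3e were at 0 in WT, and Cd3g, Adgre1 and the Merkel keratin Krt20 were at 0 in KO. In bulk RNA, fewer cells of a type and less RNA per cell cannot be told apart.

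Of the 10 genes, 5 were lower in KO (Ccne2, Rbl1, Ccne1, Ccnd1 and Cdk4), 1 was higher (Rbl2), and 4 did not pass (Ccnd2, Ccnd3, Cdk6 and Rb1). Over all 12957 tested genes 20.4% were lower and 20.4% higher, 40.8% in all, so a call by itself does not set these genes apart. The median log2 change was -0.31 over the 10 genes and 0.02 over all tested genes. In CPM the groups were fully apart for 8 of the 10 genes, 6 of them lower in KO and 2 higher, where 66.4% of all tested genes did not overlap, 34.0% lower and 32.5% higher. Leaving out WT1, WT2 or WT3 left 3, 3 and 3 of the 10 genes called, where 15.2, 17.7 and 17.5% of all genes were called. Leaving out KO1 or KO2 gave 7 and 9 called, where 59.7 and 61.0% of all genes were called.

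**Figure D1:**
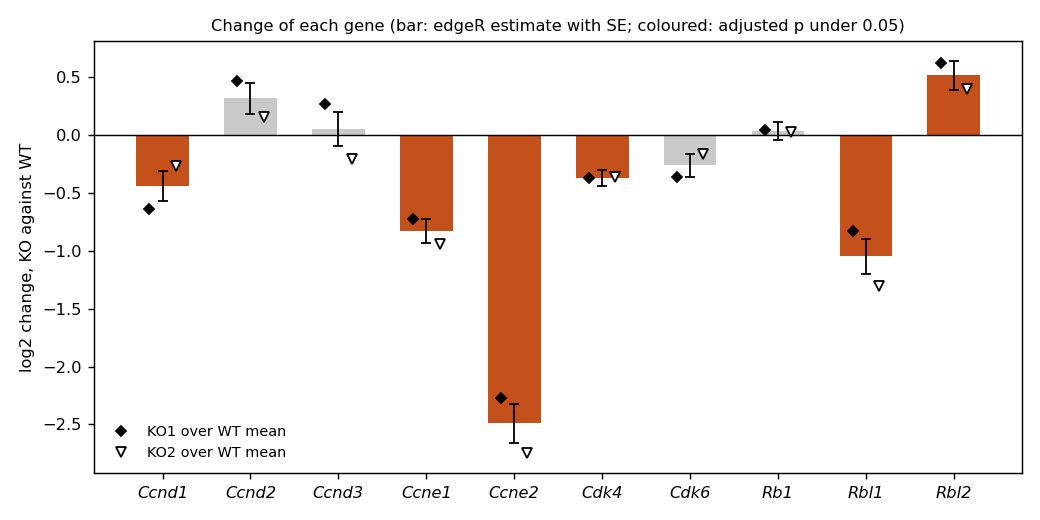
log2 change of each gene in KO against WT, as the edgeR estimate (bars) with its standard error, orange where the adjusted p was under 0.05, and log2 CPM of KO1 (diamonds) and KO2 (triangles) over the WT mean. Ccne2 has the largest fall of the 10 (-2.49), and the KO libraries lie on opposite sides of 0 for Ccnd3.

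The E cyclins, which bind CDK2 at the G1/S boundary, were both lower in KO, Ccne2 by 5.62-fold and Ccne1 by 1.77-fold. Ccne2 (chromosome 4, 11190433 to 11204779) was at 27.9, 25.1 and 27.8 CPM in the WT libraries against 5.58 and 4.01 CPM in the KO libraries. The higher KO library reached 22.2% of the lowest WT library. Its log2 change was -2.49 ± 0.17 (SE), 5.62-fold lower (adjusted p = 0.00174, edgeR), on a summed 1666 counts in WT and 198 in KO. Ccne1 (chromosome 7, 38097984 to 38107490) was at 51.5, 45.6 and 48.2 CPM in the WT libraries and 29.4 and 25.3 CPM in the KO libraries. All WT libraries lay above both KO libraries, and the log2 change was -0.83 ± 0.10 (SE; adjusted p = 0.00462, edgeR), 1.77-fold lower. Both calls held under all 16 alternatives.

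On the length-scaled TPM the E cyclins summed to 73.9, 65.7 and 70.0 in the WT and 33.6 and 28.6 in the KO libraries. Within that sum Ccne1 took 71.5, 71.3 and 70.5% in WT and 88.2 and 89.7% in KO, the larger part in every library. The mean share was 17.9 percentage points higher in KO, between groups that did not overlap (exact permutation p = 0.20, two-sided, the smallest that 2 against 3 libraries can give; adjusted p = 0.286 over 10 shares).

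Of the pocket proteins Rbl1 was lower in KO, Rbl2 was higher and Rb1 did not pass. Rbl1, which encodes p107 (chromosome 2, 157145893 to 157204534), was at 69.7, 69.2 and 68.3 CPM in the WT libraries against 38.9 and 27.9 CPM in the KO libraries. The WT libraries were within 1.39 CPM of each other, while KO2 was at 71.7% of KO1. The log2 change was -1.05 ± 0.15 (SE; adjusted p = 0.00619, edgeR), 2.07-fold lower, and the call held under all 16 alternatives. Rbl2, which encodes p130 (chromosome 8, 91070057 to 91123844), was at 18.0, 20.7 and 21.9 CPM in WT and 31.1 and 26.7 CPM in the KO libraries, both above every WT library. It rose 1.43-fold, a log2 change of 0.52 ± 0.12 (SE; adjusted p = 0.0253, edgeR). Rbl2 no longer passed when WT1, WT2 or WT3 was dropped (adjusted p = 0.0902, 0.0869 and 0.0635), with group-wise spreads (adjusted p = 0.107) and on log2(TPM + 0.1) (adjusted p = 0.074; range over alternatives 0.00214 to 0.107). Rb1, which encodes the retinoblastoma protein (chromosome 14, 73195502 to 73325822), was at 25.5, 24.3 and 24.4 CPM in WT and 25.5 and 25.2 CPM in KO. Its KO libraries lay inside the WT range, with a log2 change of 0.03 ± 0.08 (SE; adjusted p = 0.753, edgeR), and it passed in none of the 16 alternatives.

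The pocket proteins were also set against each other. Of the summed pocket protein TPM, Rbl1 took 63.4, 61.9 and 60.4% in the WT libraries against 43.4 and 36.2% in KO1 and KO2. Rbl2 took 14.7, 17.1 and 18.2% in WT and 30.5 and 31.9% in KO, and Rb1 21.1 to 21.9% in WT and 26.1 and 31.9% in KO. Rbl1 had the largest share in all 5 libraries, and none of these 3 shares overlapped between the groups (exact permutation p = 0.20 for each share, two-sided, the smallest possible; adjusted p = 0.286). The summed level was 48.5 to 49.3 TPM in WT and 40.7 and 33.1 TPM in KO.

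**Figure D2:**
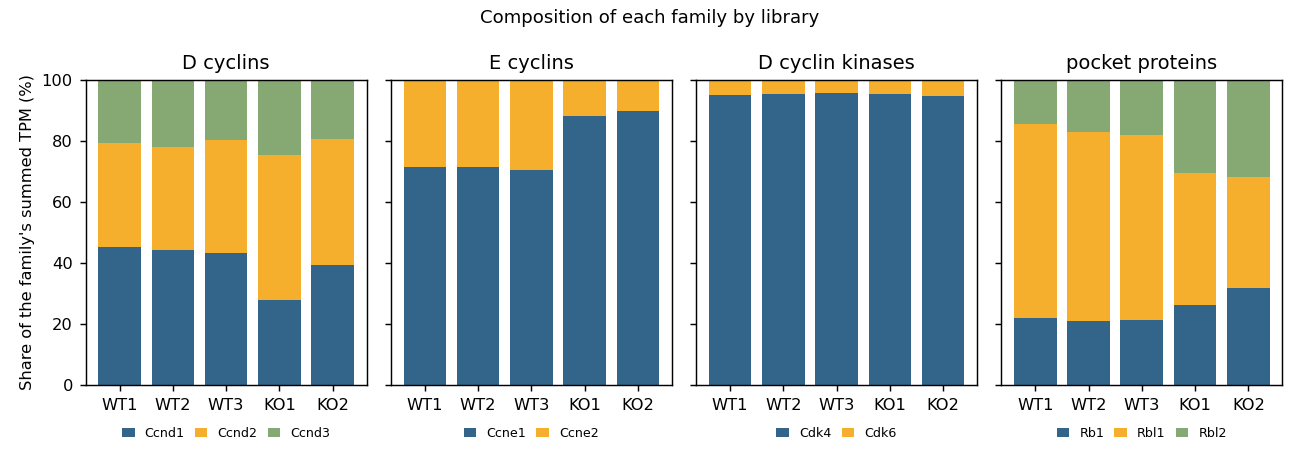
Share (%) of each gene in the summed TPM of its family, by library, for the D cyclins, E cyclins, D cyclin kinases and pocket proteins. Rbl1 takes 60.4 to 63.4% of the pocket protein sum in WT and 43.4 and 36.2% in KO, while the split between Cdk4 and Cdk6 stays between 94.6 and 95.6% Cdk4.

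The D cyclins, which carry growth factor signals to CDK4 and CDK6, did not move as a block. Ccnd1 (chromosome 7, 144929931 to 144939937), the D cyclin most directly driven by mitogens, was at 427, 408 and 428 CPM in the WT libraries against 271 and 350 CPM in the KO libraries. Both KO libraries lay below the WT libraries, KO1 further than KO2. The log2 change was -0.44 ± 0.13 (SE), 1.35-fold lower, and passed narrowly (adjusted p = 0.043, edgeR). The call was lost on dropping WT1, WT2 or WT3 (adjusted p = 0.141, 0.118 and 0.137), with total count scaling (adjusted p = 0.0582), a stricter count filter (adjusted p = 0.0502), log2(TPM + 1) over all genes (adjusted p = 0.0539) and log2(TPM + 0.1) (adjusted p = 0.0812; range over alternatives 6.84e-05 to 0.194). Without KO1 the fold was smaller, with a log2 change of -0.27, and without KO2 it was -0.62.

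Ccnd2 (chromosome 6, 127122966 to 127152188), the other abundant D cyclin, was at 497, 488 and 569 CPM in WT and 716 and 577 CPM in the KO libraries. KO2 exceeded WT3 by under 10 CPM, and on the TPM scale KO2 (189) lay just below WT3 (190). The log2 change of 0.32 ± 0.13 (SE) did not pass (adjusted p = 0.109, edgeR). It was 0.15 without KO1 and 0.48 without KO2, and passed under no alternative that kept both KO libraries. Ccnd3 (chromosome 17, 47505051 to 47599689), the D cyclin often tied to differentiating cells, was at 96.4, 101 and 96.8 CPM in WT, 119 CPM in KO1 and 85.2 CPM in KO2. KO1 lay above and KO2 below every WT library, so the log2 change of 0.05 ± 0.15 (SE; adjusted p = 0.79, edgeR) averages 2 libraries that differ. With KO1 alone the log2 change of Ccnd3 was 0.28 and with KO2 alone -0.21, in fits that take their spread from the WT libraries. Under no alternative that kept both KO libraries did Ccnd3 pass.

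The summed D cyclin level overlapped between the groups, at 490, 483 and 514 TPM in the WT libraries against 497 and 458 TPM in the KO libraries (exact permutation p = 0.60, two-sided; adjusted p = 0.60 over 4 sums). Within that sum Ccnd1 took 45.3, 44.1 and 43.2% in WT and 28.0 and 39.3% in KO. Ccnd2 took 33.9, 33.9 and 37.0% in WT and 47.2 and 41.3% in KO. By TPM Ccnd1 thus led in every WT library and Ccnd2 in both KO libraries. Neither share overlapped between the groups (exact permutation p = 0.20, two-sided, the smallest possible, adjusted p = 0.286). Ccnd3 kept 19.8 to 21.9% in WT against 24.8 and 19.4% in KO. In CPM, which is not scaled by length, Ccnd2 lay above Ccnd1 in every library, so the change of lead holds for TPM only.

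Of the kinases of the D cyclins Cdk4 was lower in KO by a small amount, and Cdk6 did not pass. Cdk4 (chromosome 10, 127063535 to 127067288) was at 321, 312 and 318 CPM in the WT libraries against 245 and 246 CPM in the KO libraries. Here the KO libraries were close to each other and both well below WT. The log2 change was -0.37 ± 0.07 (SE), 1.29-fold lower (adjusted p = 0.0136, edgeR). With 1 WT library left out the estimate stayed at -0.36 to -0.38 but did not pass (adjusted p = 0.0824, 0.0692 and 0.0733 in turn), with a range over all alternatives of 6.55e-07 to 0.188. Cdk6 (chromosome 5, 3325719 to 3531008) was at 143, 133 and 125 CPM in WT and 104 and 119 CPM in the KO libraries. The groups did not overlap, but WT3 and KO2 were close, and the log2 change of -0.26 ± 0.10 (SE) did not pass (adjusted p = 0.0865, edgeR). It was -0.17 without KO1 and -0.35 without KO2, and passed under no alternative that kept both KO libraries.

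Cdk4 supplied nearly all of this kinase message per length, 94.6 to 95.6% of the sum with Cdk6 over all 5 libraries. Their summed level was 471 to 484 TPM in WT and 363 and 367 TPM in KO, with the split between them overlapping across groups (exact permutation p = 0.60, two-sided; adjusted p = 0.667).

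**Figure D3:**
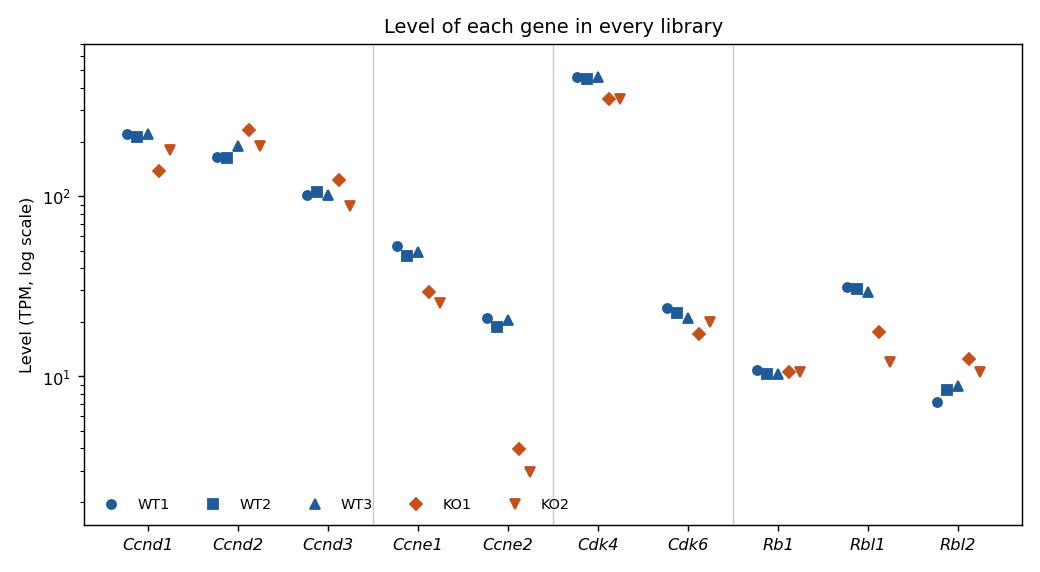
Level of each gene in every library in TPM on a log axis, WT in blue and KO in orange, with 1 symbol per library. Ccne2 drops from 18.8 to 21.1 TPM in WT to 3.95 and 2.94 TPM in KO, while Rb1 stays between 10.4 and 10.8 TPM in all 5 libraries.

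Ordered by mean TPM, the WT cells held Cdk4 (455), Ccnd1 (219), Ccnd2 (173), Ccnd3 (103), Ccne1 (49.7), Rbl1 (30.3), Cdk6 (22.6), Ccne2 (20.2), Rb1 (10.5) and Rbl2 (8.16). The ranges of neighbours in that order were apart except for Cdk6 and Ccne2. In KO the order was Cdk4 (346), Ccnd2 (212), Ccnd1 (159), Ccnd3 (106), Ccne1 (27.6), Cdk6 (18.6), Rbl1 (14.8), Rbl2 (11.5), Rb1 (10.6) and Ccne2 (3.45). There the ranges of Cdk6, Rbl1 and Rbl2 each overlapped the next, and the other neighbours were apart. Ccne2 thus went from the level of Cdk6 to the lowest of the 10, and Rbl2 from the lowest to above the mean of Rb1.

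Reads of these genes may be shared with neighbours. In the GENCODE M21 annotation of the same build, 8 of the 10 genes share exon bases with a gene on the opposite strand, and Ccne1 and Rbl1 with none. The shared part is 23.4% of the exon bases of Ccnd1 (with LTO1), 19.7% of Cdk4 (Tspan31) and 17.4% of Ccne2 (Ints8). Rbl2 has 2 such neighbours, Gm45464 with 11.8% and Aktip with 9.17% of its exon bases. For the other genes it is at most 8.11% per neighbour. With the strand setting not known, such reads cannot be told apart. Ints8 had means of 41.8 (WT) and 36.1 CPM (KO) and Tspan31 of 142 and 129 CPM, and neither passed (adjusted p = 0.136 and 0.178, edgeR). Aktip had means of 37.7 (WT) and 31.6 CPM (KO), above the 20.2 and 28.9 CPM of Rbl2, and did not pass (adjusted p = 0.12, edgeR). Bysl beside Ccnd3 and Rcbtb2 and Lpar6 beside Rb1 were lower in KO, by log2 changes of -0.56, -0.83 and -0.58. LTO1 was higher in KO (7.50 and 12.3 CPM; adjusted p = 0.0391, edgeR), opposite to Ccnd1. A processed pseudogene, Ccnd3-ps, matched Ccnd3 over 881 bases at 96.3% identity, so the level of Ccnd3 is uncertain to that extent. The same holds for Cdk6, which Gm16505 matched over 289 bases at 95.5% identity. The deposited strand of 2 genes, Ccnd2 and Rbl1, differs from GENCODE, which places both on the minus strand.

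The partners of these genes were followed in lists that leave them out. Beside the list counts stand the shares over all tested genes, 20.4% lower and 20.4% higher. Without WT1, WT2 or WT3, 15.2, 17.7 and 17.5% of all genes were called in either direction. Among inhibitors of the kinases 3 of 7 were higher, 1 lower and 3 did not pass (median log2 change 0.51). The list median turned sign between the KO libraries, at 0.41 for KO1 alone and -0.10 for KO2 alone. Cdkn2b (p15) rose by 2.71 on the log2 scale, from 6.41 CPM in WT to 55.1 and 28.8 CPM in the KO libraries, and Cdkn2a, which encodes p16 and p19, from 0.16 CPM to 11.6 and 2.66 CPM. Cdkn1a (p21), with means of 607 (WT) and 865 CPM (KO), rose by 0.51 on the log2 scale and passed in 11 of 17 settings. The gene called lower was Cdkn2c, at a mean of 11.8 CPM in WT and 6.46 and 3.24 CPM in the KO libraries. Its log2 change was -1.28 (adjusted p = 0.0252, edgeR). Dropping WT1, WT2 or WT3 left 2, 2 and 2 of the 7 higher and 0, 0 and 0 lower.

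Of 10 E2F factors and their DP partners 6 were lower, 0 higher and 4 did not pass (median log2 change -0.54). Over all tested genes 20.4% were lower and 20.4% higher. The repressor E2f7 changed by -2.19, with 54.8 CPM in WT and 12.0 CPM in each KO library, and Tfdp1, the main DP partner, and the activator E2f3 by -0.70 and -0.53. The 6 lower became 4, 5 and 4 without WT1, WT2 or WT3. MuvB is the core that joins p107 or p130 with E2F in the DREAM repressor complex and joins MYBL2 later in the cycle. Of 7 genes of that group 4 were lower, 1 higher and 2 did not pass (median -0.56), with Lin9, Lin54 and Rbbp4 at -1.52, -1.11 and -0.56. The 4 lower became 3, 3 and 3 and the 1 higher 0, 0 and 0 without WT1, WT2 or WT3.

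Of 20 G1/S target genes 19 were lower, 0 higher and 1, Ung, did not pass (median log2 change -1.54), against 20.4% lower over all tested genes. The licensing factor Cdt1 changed by -1.51 (70.0 to 24.5 CPM) and the polymerase gene Pola1 by -1.77. With WT1, WT2 or WT3 left out 17, 17 and 17 were lower, and the list median was -1.24 for KO1 alone and -1.77 for KO2 alone. Of 6 cyclins and kinases of S phase and mitosis 5 were lower, 0 higher and 1 did not pass (median -1.82). Cdk2, the partner of cyclin E, changed by -0.63 (45.4 to 29.3 CPM) and the mitotic kinase gene Cdk1 by -2.05 (141 CPM in WT, 51.4 and 16.9 CPM in the KO libraries). Cdk1 stood at -3.07 without KO1 and -1.45 without KO2. Ccnf changed by -1.18, with 74.7 CPM in WT and 44.4 and 21.6 CPM in the KO libraries, and stood at -1.80 without KO1 and -0.74 without KO2. The list median was -1.09 for KO1 alone and -3.18 for KO2 alone, and 0, 0 and 0 of the 5 calls held without WT1, WT2 or WT3.

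Of 9 genes that mark G1 regulators for destruction 5 were lower, 2 higher and 2 did not pass (median log2 change -0.32). The 2 higher were near the 20.4% higher over all tested genes, of which 20.4% were lower. The ubiquitin ligase subunit Skp2, which targets p27, changed by -1.55, its cofactor Cks1b by -0.93 and the scaffold Cul1 by -0.35. Fbxw7, which targets cyclin E, and Ambra1, which targets D cyclins, rose by 0.35 and 0.30. The 5 lower became 2, 2 and 2 and the 2 higher 0, 0 and 0 without WT1, WT2 or WT3. Among the 3 subunits of the CDK-activating kinase Ccnh was lower (-0.65), with Mnat1 at -0.17 and Cdk7 at -0.19 not passing, and 0, 0 and 0 were called without WT1, WT2 or WT3. The KO libraries differed in Cdk7 (27.7 and 36.3 CPM), whose log2 change was -0.02 without KO1 and -0.39 without KO2. Cdk7 passed under no alternative that kept both KO libraries. Of 20 other cyclins and CDKs, which act mostly in transcription or outside the cycle, 4 were higher, 4 lower and 12 did not pass (median 0.04), shares near the 20.4% higher and 20.4% lower over all tested genes. Those of the smallest p, Cdk18, Cdk5 and Ccnl2, rose by 1.40, 0.62 and 0.54. The 4 higher became 2, 2 and 2 and the 4 lower 0, 0 and 0 without WT1, WT2 or WT3.

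**Figure D4:**
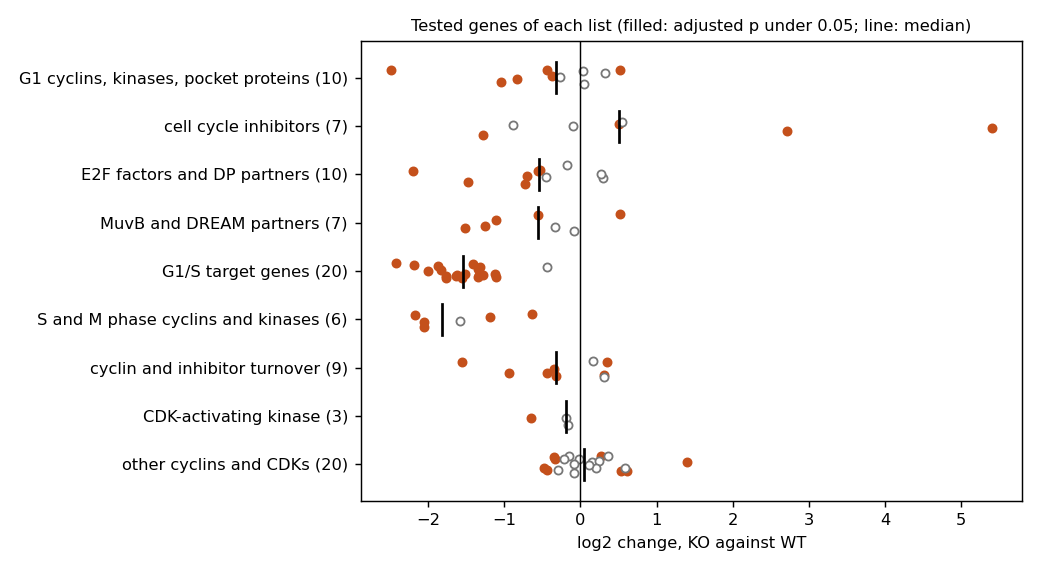
log2 change in KO against WT of each tested gene, by list, filled where the adjusted p was under 0.05, with the median as a line and the number of genes in brackets. The G1/S target genes lie left of 0 (median -1.54), and the other cyclins and CDKs spread around 0 (median 0.04).

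How far each change depended on the analysis differed between the 10 genes. Over the reported fit and its 16 alternatives, Ccne1, Ccne2 and Rbl1 passed in 17 of 17, Cdk4 in 13, Rbl2 in 11 and Ccnd1 in 9. Ccnd3 passed in 2, in opposite directions, Ccnd2 and Cdk6 in 1 each and Rb1 in 0. Every pass of Ccnd3, Ccnd2 and Cdk6 came from a fit with a single KO library, whose spread is that of the WT libraries. The log2 change of Ccne2 ranged from -2.76 to -2.26, that of Rbl1 from -1.32 to -0.82 and that of Ccne1 from -0.94 to -0.71.

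**Figure D5:**
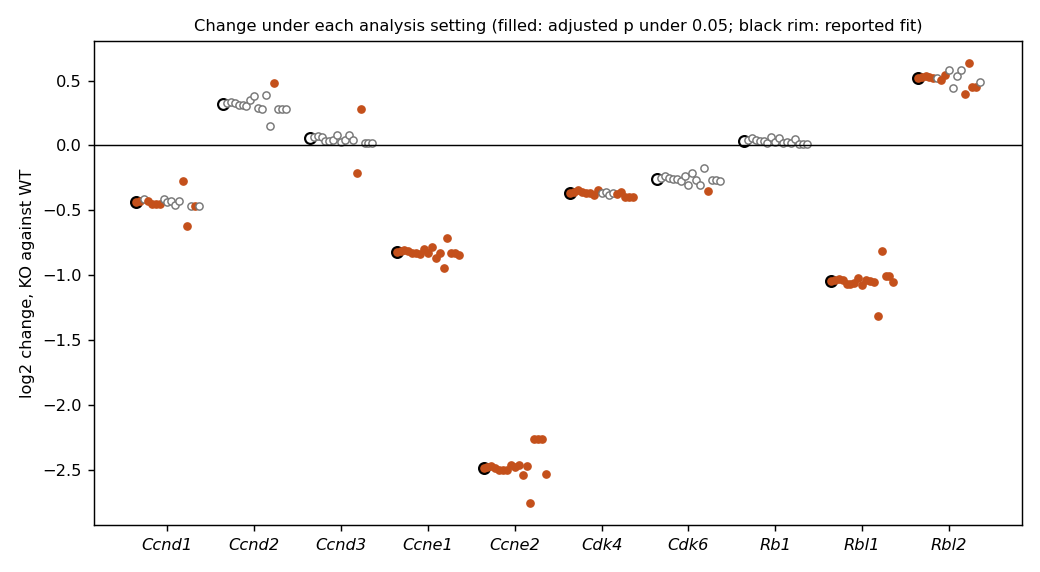
log2 change of each gene in KO against WT under the reported fit (black rim) and 16 alternatives, filled where the adjusted p was under 0.05. Ccne1, Ccne2 and Rbl1 are filled in 17 of 17, and Ccnd3 is filled 1 time above and 1 time below 0.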

How the data were processed

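The RNA-seq libraries were grouped by their titles as KO (2) and WT (3). The authors deposited expected counts, TPM (transcripts scaled by length to a fixed total) and FPKM for 17657 genes. The 5 FPKM columns were not used. Per the submitters' processing notes, RSEM 1.3.1 and the build GRCm38.p6 were used. Neither an aligner nor a strand setting was found in the labels. Totals were 20283084 to 20773407 expected counts per library. With no interval given, the standard errors stand for precision.

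Expected counts were rounded and fitted over all genes in R 4.3.3 with edgeR 4.0.16: filterByExpr by group, TMM scaling (factors 0.988 to 1.02), the quasi-likelihood test, two-sided, Benjamini-Hochberg over the 12957 genes tested, threshold 0.05. CPM values use TMM-scaled totals, and standard errors come from the test statistic. The script was tested on simulated data with the same spread in both groups, so the unequal spread of these libraries was not simulated. Shares of a family's TPM were compared by exact permutation over libraries.

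Alternatives were DESeq2 1.42.0 and its size factors, total count scaling, limma-voom (limma 3.58.1) with 1 or separate spreads, no filter, a stricter filter (mean counts of 10 or more in a group and 50 or more over all libraries), a replicate block, each library left out, and limma on log2(TPM + 1), for all genes or those of mean TPM 1 or more, and log2(TPM + 0.1). Replicate pairs differed by more than counting noise, so none was counted as a copy. The genes described, the lists and the tests were chosen with earlier results of these data known. Besides the 10 genes and Angptl4, up to 3 genes per pathway list with the smallest p were named; 1 of these is not reported here. The other list genes named, and counts of list members with a library left out, were chosen after their values were seen.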

Additional observations from a re-analysis of the deposited data

How the results depend on the processing

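Against 5286 genes called as reported, 3192 were called (1625 higher, 1567 lower) with a separate spread per group. With the replicate number as a block they numbered 1580 (797 higher, 783 lower), and of the 10 G1 genes 3 were called, 3 lower and 0 higher, without Ccnd1, Cdk4 and Rbl2 (adjusted p = 0.194, 0.188 and 0.104, edgeR). The labels state no pairing. Deviations from the group means correlated at 0.01 for KO1 with WT1 and 0.07 for KO2 with WT2. With 2 KO libraries, the deviation of KO2 is that of KO1 with its sign turned. These values therefore cannot decide whether the replicate numbers pair the libraries. With 1 library left out, all genes called ranged from 1957 to 8068 (higher 980 to 3975, lower 977 to 4093), and G1 genes called from 3 to 9 (higher 0 to 3, lower 3 to 6). Of the G1 genes 0 were higher with a separate spread per group and 0 on log2(TPM + 0.1). Leaving out 1 library reversed 3 results: without KO1 the log2 change of Ccnd3 was -0.21 (range over libraries left out -0.21 to 0.28) and its share of the D cyclins -1.44 percentage points (range -1.44 to 3.99), and without KO2 the D cyclin sum was 0.91 TPM higher in KO (range -37.8 to 0.91). The cause was not tested. Fits with a single KO library take its variation from the WT libraries. With shares taken from CPM in place of TPM, all 10 shares kept their direction. The lowest count of a G1 gene summed over a group was 198 (Ccne2 in KO).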
